A study of Mus musculus with 5 samples.

Results

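The regions described here are CpG-dense restriction fragments that were methylated in a non-clonal population of mouse CD8+ T cells. A member is an MspI fragment with 10 to 19 CpGs whose methylation level, the share of methylated calls among all its CpG calls, was above 80% on the odd lines of the population's file. It also had to carry at least 10 molecules with a call in each clone library and at least 5 on the odd and on the even lines of the population's file. There were 5229 such fragments among 24225 fragments with 10 to 19 CpGs that met the coverage minimum, a share of 21.6%. The members were thus selected on their own level in one portion of the population library, which is no finding. In all, 160499 fragments of any CpG number met the minimum. Of the remaining CpG-dense fragments, 17146 lay under 20% on the odd lines and 1850 between these levels.

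The study compared clone 1 and clone 2, each expanded from 1 CD8+ T cell sorted from cultured, IL2-stimulated naive T cells of C57BL/6 mouse spleens, with the non-clonal population. Growth of the clones spanned 15 cell divisions per the labels, which describe the population's cells as primary. Each clone has 2 labelled replicates in 1 deposited file, where they cannot be told apart, so each clone is 1 pooled library, and the population is 1 library. A clone stands for a single founder cell, and the labels state neither how many mice were used nor their age.

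DNA methylation at CpGs is copied at cell division mainly by DNMT1, which restores the mark on the new strand next to a methylated CpG of the old one. Stretches with many CpGs, such as the CpG islands at promoters, are usually kept unmethylated in normal cells. Methylated ones are known from silenced germline genes, imprinted regions, the inactive X chromosome, repeats and gene bodies. The deposited files name fragments by number without coordinates, and no genome of the build used was at hand. Each fragment goes by its number here, no gene or sequence is given, and T cell marker genes could not be looked up.

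MspI cuts at CCGG whether or not the inner CpG is methylated, so the fragments start and end at such sites. Each molecule carried a tag before bisulfite conversion, and each CpG of a molecule is read as methylated, unmethylated or not observed. The members were covered by 138469 molecules with a call in clone 1, 119874 in clone 2 and 57821 on the even lines of the population, with medians of 24, 20 and 11 molecules per fragment in the same order. A molecule showed a median of 8 CpGs in clone 1, 8 in clone 2 and 7 in the population. All population values below come from the even lines, since the odd lines chose the members. There is no replicate library, so tests on molecules compare these libraries and not conditions, and intervals cover counting error only.

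The members stayed methylated in both clones. Their mean level was 93.9% in clone 1 (SD over fragments 5.43, n = 5229 fragments), 94.2% in clone 2 (SD 5.43) and 93.6% in the population (SD 5.70). The median was 95.5% in clone 1, 95.8% in clone 2 and 95.0% in the population. On the odd lines, which chose them, the mean was 94.0%. The mean difference from the population was 0.30 percentage points for clone 1 and 0.56 for clone 2, while single members differed with an SD of 5.76 and 5.83 points. For differences of levels pooled over all member calls, the 95% margins to either side from counting error are 0.0868 and 0.0883 points. They take calls as independent and do not weight fragments equally, as the means above do. Unmethylated calls met on the same molecule more often than independence gives, so these margins are too narrow. The spread between libraries is not known. In clone 1, 2728 members were above their population level and 2478 below it, and in clone 2 these were 2841 and 2351. Clone 1 lay within 5 points of the population at 74.8% of members and clone 2 at 73.5%, and the clones lay within 5 points of each other at 76.7%.

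**Figure D1:**
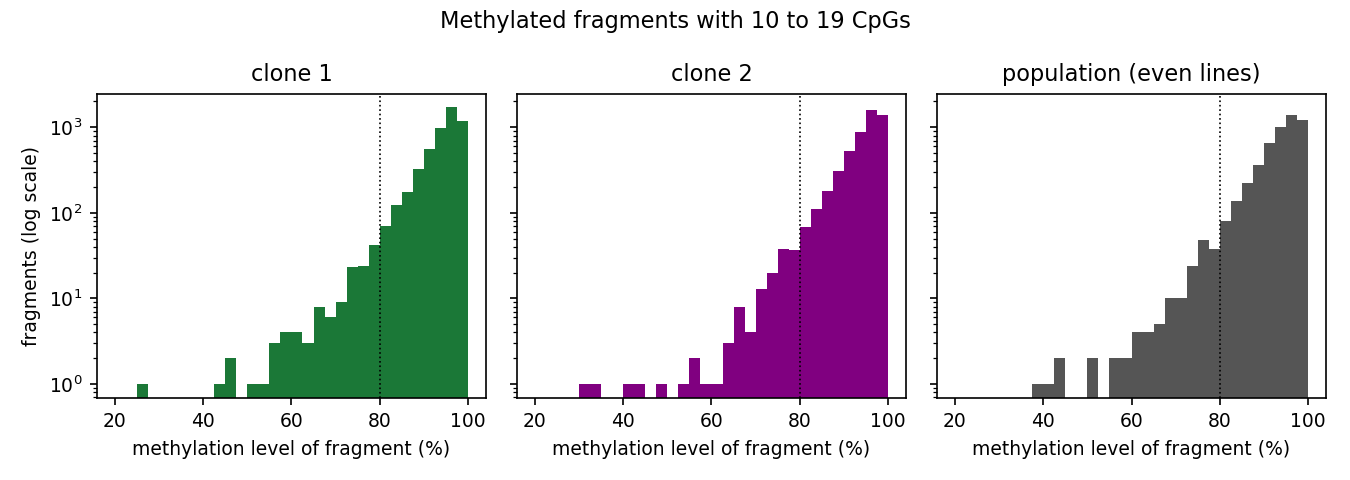
Number of methylated fragments with 10 to 19 CpGs (y axis, log scale) by methylation level in percent (x axis) in clone 1, clone 2 and the even lines of the population, with a dotted line at 80%. In each library most fragments lie above 90%, and the tail reaches down to 26.0% in clone 1, 30.3% in clone 2 and 38.4% in the population.

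Loss of the methylated state from a whole fragment was rare in every library. A level above 80% was held by 5093 members in clone 1, 5093 in clone 2 and 5066 on the population's even lines, and 4886 members (93.4%) were above 80% in all 3 libraries. The even lines show what remeasuring the same library gives, and 163 members lay at 80% or less there, and 136 in each clone. Members had a median of 11 molecules on the even lines, against 24 in clone 1 and 20 in clone 2. The part of this depth in the counts was not tested. Of the 136 in clone 1 and the 136 in clone 2, 31 were the same fragments. No member was under 20% in any library, and no member was under 50% in both clones. Under 50% there were 4 members in clone 1, 5 in clone 2 and 4 in the population. Of the 9 members under 50% in a clone, named after their values were seen, 3 were not called between the clones by the test described below. Fragment 1592805 was at 78.1% in clone 1, 42.0% in clone 2 and 75.3% in the population, fragment 1373913 at 84.9%, 43.8% and 60.3%, and fragment 699419 at 61.0%, 48.4% and 55.3%.

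CpG number made little difference among the members. Fragments with 10 CpGs, 2050 in number, averaged 93.6% in clone 1, 94.1% in clone 2 and 93.5% in the population. The 50 fragments with 19 CpGs averaged 93.9%, 93.3% and 93.9% in the same order. Membership itself became rarer with CpG number: 41.1% of covered fragments with 10 CpGs were members and 4.94% of those with 19. This last value follows from the choice on level and is a description.

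The 80% threshold was crossed without a gap. The 3 members just above it, fragments 1592805, 653392 and 651909, had 80.1%, 80.2% and 80.2% on the odd lines. Remeasured on the even lines they had 75.3%, 82.1% and 83.3%. The 3 fragments just outside, 105939, 284007 and 513384, had 80% on the odd lines and 93.9%, 82.6% and 95.7% on the even lines.

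Most molecules from the members carried methylation at every observed CpG. This held for 67.7% of molecules in clone 1 (Wilson 95% interval 67.4 to 67.9), 68.8% in clone 2 (68.6 to 69.1) and 68.2% in the population (67.8 to 68.6). Among molecules with 8 or more observed CpGs, exactly 1 unmethylated CpG was seen on 25.6% in clone 1, 24.7% in clone 2 and 24.6% in the population. Molecules of that length with 3 or more unmethylated CpGs made up 2.66% (2.55 to 2.78) in clone 1 and 2.71% (2.59 to 2.84) in clone 2, against 3.54% (3.34 to 3.76) in the population. Those with at most 20% of their CpGs methylated were 0.0708% (0.0542 to 0.0926) in clone 1 and 0.118% (0.0942 to 0.148) in clone 2, against 0.252% (0.200 to 0.317) in the population. Intervals of either clone do not overlap the population's for these long molecules. They treat molecules as independent, however, and the population's share at 20% or less rests on 72 long molecules. Fragment 1354986 alone had 7 population molecules, of any length, under 20% methylated. With 1 library each, the intervals are a description and no test between libraries. Over molecules of any length the shares at 20% or less were 0.572% (0.534 to 0.613) in clone 1 and 0.631% (0.587 to 0.677) in clone 2, against 0.687% (0.622 to 0.757) in the population, and the interval of clone 2 does overlap.

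The deepest members give the closest view of one fragment. Fragment 937786, with 12 CpGs, had more than 50% of its CpGs methylated on 133 of 134 molecules in clone 1, 128 of 128 in clone 2 and 60 of 60 in the population, with levels of 94.9%, 96.7% and 96.0%. Fragment 746102, with 13 CpGs, had 99 of 102, 107 of 109 and 44 of 45 such molecules in the same order. Its CpG number 4 lay between 20 and 80% in all 3 libraries while its other CpGs were at 80% or more, as the circles show. A filled circle stands for a CpG at 80% or more, an open one for 20% or less, ◐ for a level between them and a dot for fewer than 3 molecules.
Fragment 746102, clone 1: ●●●◐●●●●●●●●●
Fragment 746102, clone 2: ●●●◐●●●●●●●●●
Fragment 746102, population: ●●●◐●●●●●●●●●
Of the molecules of fragment 1171737, with 11 CpGs, 96 of 110 were methylated in clone 1, 117 of 118 in clone 2 and 48 of 52 in the population. Its clones differed by 11.9 points, under the 20 points that a call required.

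Whole fragments were compared between libraries on methylated molecules, meaning a methylated share above 50% of the CpGs seen, using Fisher's exact test (two-sided). A call needed an adjusted p (Benjamini-Hochberg over all tested fragments with at least 4 CpGs) under 0.05 and a difference of at least 20 points. Between the clones, 15 of the 5229 members were called, 0.287%, while 2.46% of all 129568 tested fragments were called. Higher in clone 1 were 7 members (background 1.13%) and lower in clone 1 were 8 (background 1.33%). At an unadjusted p under 0.05 there were 65 members (1.24%), while 6.79% of all tested fragments were. Complete loss in clone 1, with every clone 2 molecule methylated, would have passed at all 5229 members. Loss on every other clone 1 molecule would have passed at 3786 of them (72.4%), so smaller losses could be missed. The same was not computed for loss in clone 2. The count depends on what a methylated molecule is: it was 130 (2.49% of members) with a threshold of 80% of CpGs, where 5.60% of all tested fragments were called. It was 24 (0.468%) without the first and last CpG, where 4.24% of all were called. With molecules of 2 or more reads it was 0 of the 618 members left, where 0.730% of all tested fragments were called.

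**Figure D2:**
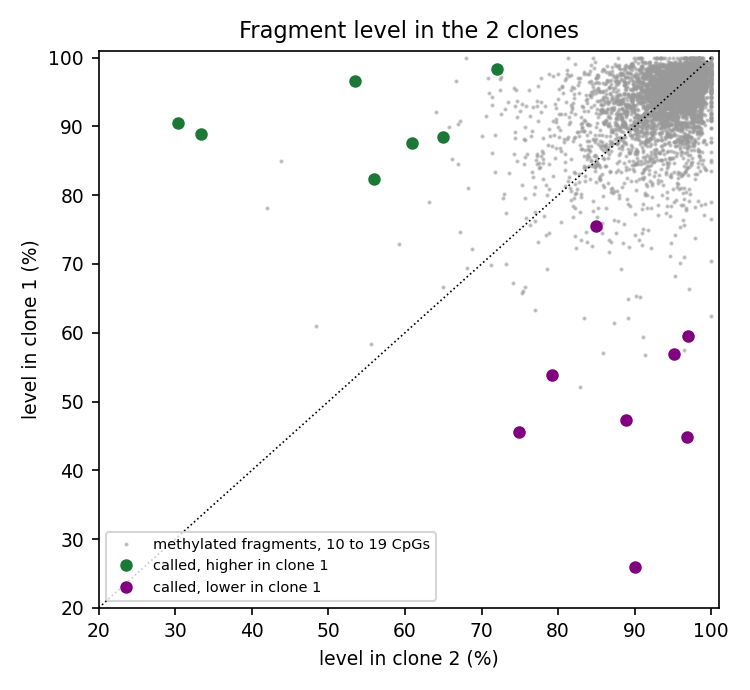
Methylation level in percent of each methylated fragment with 10 to 19 CpGs in clone 1 (y axis) against clone 2 (x axis), with the dotted line of equal levels. The 7 fragments called higher in clone 1 lie above that line, the 8 called lower in clone 1 below it, and most of the 5229 fragments fill the upper right corner.

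Of the 7 members lower in clone 2, 1 was divided into largely methylated and largely unmethylated molecules. At fragment 209581, with 10 CpGs, all 46 molecules of clone 1 were methylated (Wilson 95% interval 92.3 to 100%), as were 28 of 52 in clone 2 (40.5 to 66.7%) and all 13 in the population. In clone 2, 27 of its molecules were over 80% methylated, 24 were under 20% and 1 lay between. Every CpG of the fragment took part:
Fragment 209581, clone 1: ●●●●●●●●●●
Fragment 209581, clone 2: ◐◐◐◐◐◐◐◐◐◐
Fragment 209581, population: ●●◐●●●●●●●
The clones differed by 46.2 points at this fragment (adjusted p = 3.47e-06, Fisher's exact test). The call was lost with molecules of 2 or more reads (44.4 points) and without strands of more than 25 molecules (36.4 points).

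The others lower in clone 2 had more mixed molecules. Of the molecules of fragment 71948, with 10 CpGs, those methylated were 24 of 24 in clone 1, 8 of 30 in clone 2 (14.2 to 44.4%) and 7 of 7 in the population. Only 1 of the 30 clone 2 molecules was over 80% methylated, 16 were under 20% and 13 were mixed. Fragment 739517, with 19 CpGs, had 16 of 16, 3 of 20 and 4 of 8, the widest difference of any called member at 85.0 points (adjusted p = 3.16e-05, Fisher's exact test). Its population molecules were divided as well, with 4 over 80%, 2 mixed and 2 under 20%. Fragments 677202 and 1300718 had 14 of 30 and 21 of 39 methylated molecules in clone 2, against 25 of 26 and 38 of 39 in clone 1.
Fragment 71948, clone 1: ●●●●●◐●●●●
Fragment 71948, clone 2: ○◐●◐◐○◐◐○○
Fragment 71948, population: ·●●●●●●●●●

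The members lower in clone 1 showed both forms too. Methylated molecules of fragment 290774, with 11 CpGs, were 7 of 16 in clone 1 (23.1 to 66.8%), 17 of 17 in clone 2 and 10 of 10 in the population. In clone 1 its molecules were 7 over 80% methylated and 9 under 20%, with none between. Fragment 297934, with 11 CpGs, had 3 of 11, 13 of 13 and 8 of 9, and again no clone 1 molecule between 20 and 80%. Fragment 578990, with 12 CpGs, had 11 of 33, 35 of 36 and 13 of 13, but 17 of the 33 clone 1 molecules were mixed. With molecules counted as methylated only above 80%, its clones differed by 4.80 points in the other direction. Of its 36 clone 2 molecules, 29 were mixed as well. Fragments 1445691 and 1443346 had 6 of 15 and 11 of 24 in clone 1, against 19 of 20 and 15 of 15 in clone 2.
Fragment 290774, clone 1: ◐●●◐◐◐◐◐◐◐◐
Fragment 290774, clone 2: ·●●●●●●●●●●
Fragment 290774, population: ●●●·◐●●●●●●
With the threshold of 80% for a methylated molecule, fragments 297934, 1445691, 677202 and 1300718 were no longer called. Their differences were -49.7, -15.0, 9.49 and 25.6 points. Fragment 1445691 was not called either with molecules whose last deposited column was 0, at -51.9 points instead of -55.0.
Across the 15 called members, the clone with the lower share still had methylated molecules in every case, at shares of 15.0 to 67.3%.

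**Figure D3:**
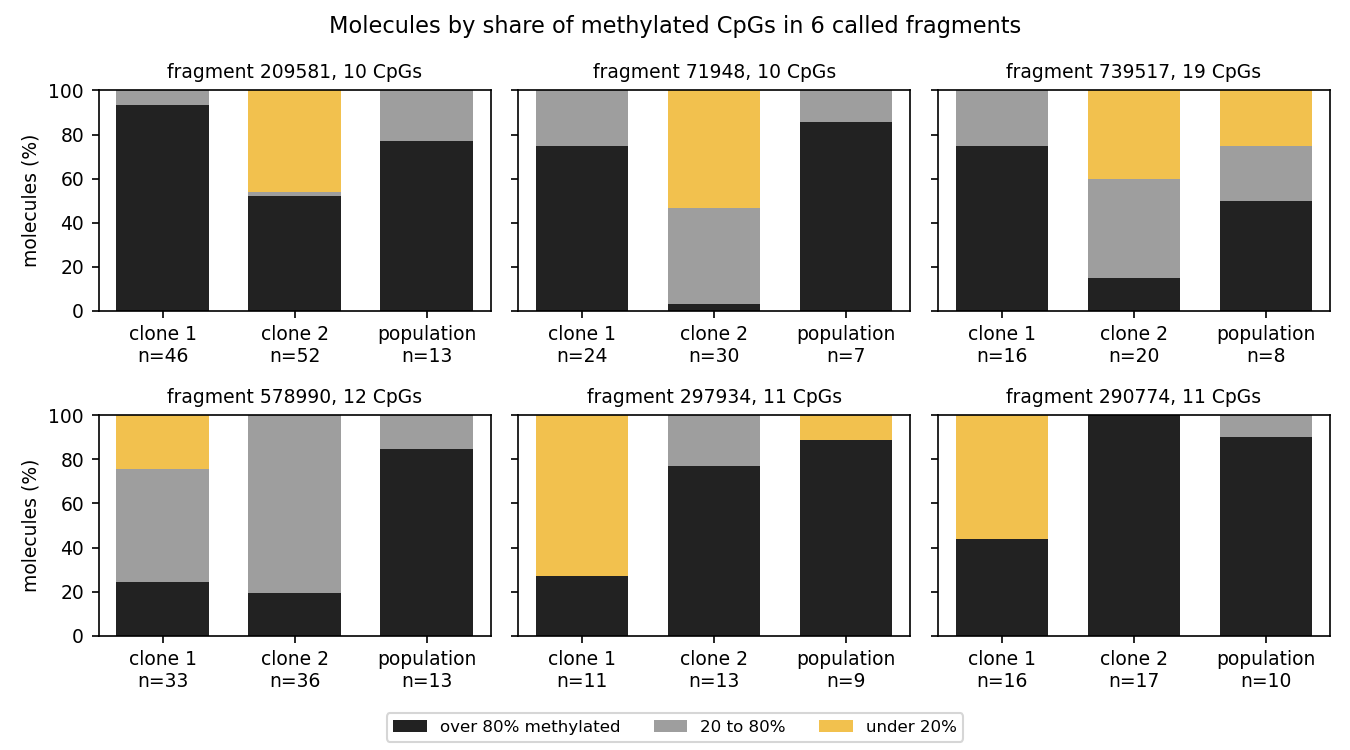
Share of molecules in percent (y axis) that were over 80%, 20 to 80% or under 20% methylated in clone 1, clone 2 and the even lines of the population (x axis, with the number of molecules) for 6 fragments called between the clones. Clone 2 at fragment 209581 and clone 1 at fragments 290774 and 297934 consist almost wholly of molecules at the ends of the scale, whereas clone 1 at fragment 578990 is mostly mixed.

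Against the population, 3 members were called in clone 1 and 3 in clone 2, 0.0574% each, by Fisher's exact test with adjustment, while 0.343% and 0.369% of all tested fragments were called. At an unadjusted p under 0.05 there were 43 members (0.822%) in clone 1 and 35 (0.669%) in clone 2, while 4.21% and 4.17% of all tested fragments were. Fragment 578990 was the only called member that was lower in a clone than in the population (1 lower in clone 1, background 0.105%; 0 lower in clone 2, background 0.088%). With methylated molecules defined above 80% it was not called there, at -60.4 points instead of -66.7. Called higher were 2 in clone 1 (background 0.238%) and 3 in clone 2 (background 0.281%). At fragment 1354986, with 15 CpGs, 39 of 39 molecules of clone 1 were methylated, 43 of 43 of clone 2 and 5 of 12 on the even lines, where 5 molecules were over 80%, 7 under 20% and none between. On the odd lines of the same library, which chose it, 11 of 12 were methylated. Fragments 543091 and 460327 had 2 of 9 and 4 of 10 on the even lines, and 8 of 10 and 8 of 9 on the odd lines. Measured on the odd lines with members chosen on the even lines, 0.346% and 0.345% of all tested fragments were called in clones 1 and 2. Of the members, 0 were called higher and 1 lower in each clone. The higher calls therefore compare the clones with the lower portion of a library whose other portion lay close to the clones. At 11 population molecules per fragment, loss on every other molecule of a clone would have passed at 366 members for clone 1 and 331 for clone 2, so such losses were mostly not detectable against the population.

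Under the main definition of a methylated molecule, single CpGs were called between the clones more often than whole members were. Each CpG with 10 or more molecules in both clones was tested by Fisher's exact test (two-sided) on the calls of its molecules, under the same call rule, adjusted over all 779287 tested CpGs. Of 35759 member CpGs tested, 1053 were called (2.94%), while 5.39% of all tested CpGs were called. Higher in clone 1 were 550 (background 2.56%) and lower in clone 1 were 503 (background 2.83%). The called CpGs lay in 734 members, while 15 members were called as a whole. Of the 1053, 984 lay in 722 fragments that were not called as a whole. A change at a single CpG leaves most molecules of a member methylated under the main definition, so the whole-fragment test can miss it. With molecules counted as methylated only above 80% of CpGs, 130 members (2.49%) were called. The gap between CpG and fragment calls thus depends on that definition, and a member had several CpG tests but a single fragment test. Exactly 1 CpG was called in 531 of the 734 fragments (72.3%), 2 in 141, 3 in 41 and 4 or more in 21. Where 2 or more were called in a fragment, 121 of 203 fragments had all of them in 1 direction and 82 had both directions.

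**Figure D4:**
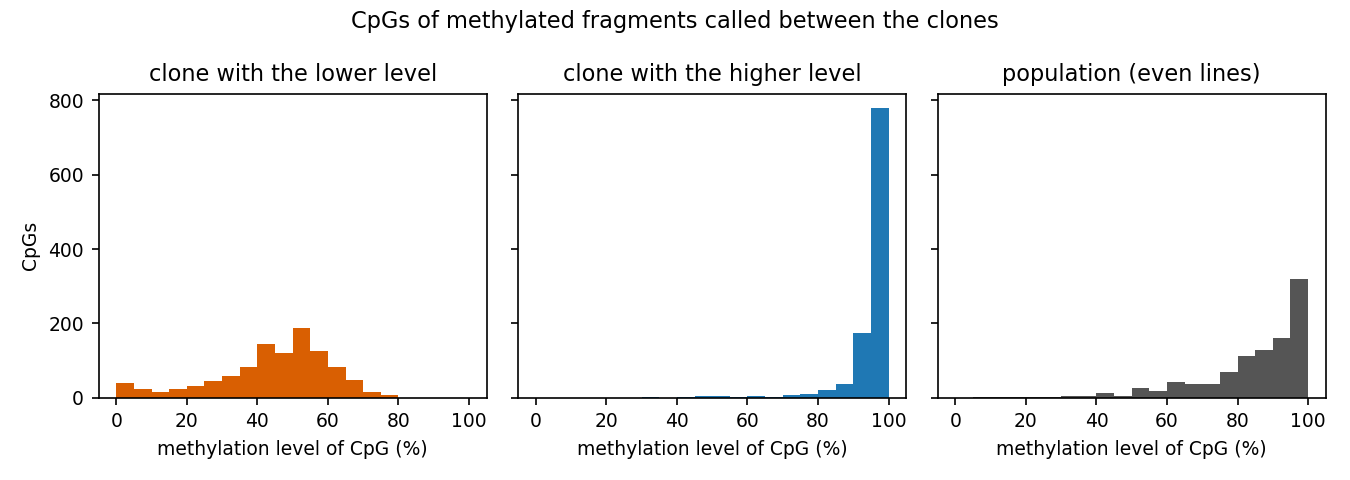
Number of CpGs (y axis) by methylation level in percent (x axis) at the CpGs of methylated fragments called between the clones, shown for the clone with the lower level, the clone with the higher level (1053 CpGs each) and the even lines of the population (994 CpGs with at least 5 molecules). The lower clone peaks near 50% with a small group near 0, the higher clone sits near 100%, and the population lies between 80 and 100% at most of these CpGs.

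At the called CpGs one clone was nearly fully methylated and the other was commonly near 50%. These levels chose the CpGs and are given as a description. The lower clone had a median of 46.9% (quartiles 35.9 and 55.3%), with 576 CpGs at 40 to 60% and 106 under 20%. The higher clone had a median of 100%. Under 20% were 49 CpGs in clone 1 and 57 in clone 2. The calls between the clones did not use the population's level. Membership did, since each member had to be highly methylated on the odd lines of the same library. A high population level near the higher clone is therefore partly built in. The population's level had a median of 88.9% (quartiles 77.8 and 100%) over 994 CpGs with at least 5 molecules. It lay strictly between the clones at 616 of these (62.0%), at or above both at 353 and at or below both at 25. On average the population was 11.0 points below the higher clone. Where both strands had at least 5 molecules in each clone, 94.7% of 805 called CpGs differed by 20 points or more in the called direction on each strand. The strands are parts of the molecules that made the call, so this share is a description and no separate support.

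Among member CpGs, calls were more frequent where the population was less than fully methylated. Of CpGs at 100% in the population, 1.55% were called between the clones (319 of 20628). The share was 4.16% of CpGs at 80% to under 90%, 10.6% of those at 50% to under 80% (233 of 2207) and 18.6% of those under 50% (39 of 210). Clone coverage in these 4 classes had medians of 21 to 23 molecules in clone 1 and 18 to 19 in clone 2. CpGs at 90% to under 100% in the population had a called share of 3.87% with deeper medians of 29 and 25 molecules. Over all tested CpGs of any level, 5.39% were called, and shares by population level were computed for the members alone. Whether other fragments show the same order was not tested.

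Without a choice of CpGs by a test, the clones had more member CpGs near 50% than the population. The members were chosen for a high level on the odd lines of the population. A low share of population CpGs near 50% is therefore partly built in. Among 9508 member CpGs with at least 20 molecules in both clones and 10 in the population, 2.31% lay at 40% to under 60% in clone 1 and 2.10% in clone 2, against 0.915% in the population. At 60% to under 80% the order turned, with 2.65% and 2.84%, against 4.82% in the population. In clone 1, 137 CpGs at 50 to 60% exceeded both the 83 at 40 to 50% and the 100 at 60 to 70%. In clone 2 the 131 at 50 to 60% likewise exceeded the 69 and the 119 beside them, whereas the population had 29, 58 and 131 in these classes. The population's median of 12 molecules per CpG, against 33 and 30 in the clones, widens its distribution. The parts of depth and of the choice of members in these shares were not tested.

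The CpGs next to a single called one were above 90% in all 3 libraries. In the 531 fragments with a single called CpG, that CpG was at 46.6% in the lower clone, 96.0% in the higher clone and 86.9% in the population, pooled over molecules. The CpG before it was at 92.6% in the lower clone, 94.1% in the higher clone and 92.2% in the population, and the CpG after it at 92.9%, 94.3% and 92.8%. From 2 CpGs away on, the lower clone stood at 94.1 to 95.4%. These fragments had by selection no further called CpG, so neighbours with a change too small to pass are not excluded. In these fragments, molecules of the lower clone that were unmethylated at the called CpG had 93.7% methylation at their other observed CpGs. Its molecules that were methylated there had 95.6%. Over all called CpGs, including those in fragments with several, the same shares were 84.5% and 92.3%.

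**Figure D5:**
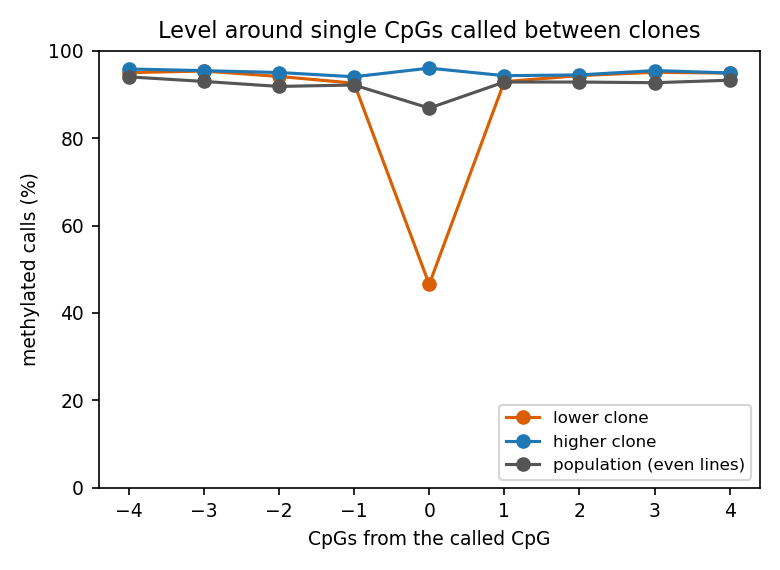
Methylated calls in percent (y axis) by distance in CpGs from the called CpG (x axis) in the 531 methylated fragments with 1 CpG called between the clones, pooled over molecules for the lower clone, the higher clone and the even lines of the population. The lower clone drops to 46.6% at the called CpG and is at 92.6% and 92.9% at the CpGs beside it.

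Shown next are the 3 widest differences per direction among these 531 fragments with 1 called CpG, chosen after their values were seen. Fragment 1011451, with 13 CpGs, carried the mark at CpG 4 on 15 of 15 clone 1 molecules and 8 of 10 population molecules, and on 0 of 14 clone 2 molecules, which allows a share of up to 21.4%. Fragment 1284083 was methylated at CpG 11 of 13 on 21 of 21 molecules in clone 1, 1 of 18 in clone 2 and 7 of 12 in the population (adjusted p = 1.22e-07 between the clones, Fisher's exact test). Fragment 1291451 had 16 of 16, 0 of 11 and 6 of 9 at CpG 10 of 14.
Fragment 1284083, clone 1: ●●●●●●●●●●●●●
Fragment 1284083, clone 2: ●●●●●●●●●●○●●
Fragment 1284083, population: ●●●●●●●●●●◐●●
In the other direction, CpG 7 of 10 in fragment 769981 was methylated on 0 of 19 clone 1 molecules, which allows up to 15.8%, on 11 of 11 from clone 2 and on 13 of 15 from the population. Fragment 1274303 had 0 of 26, 16 of 17 and 7 of 9 at CpG 3 of 10, and fragment 842887 had 0 of 11, 11 of 11 and 2 of 9 at CpG 12 of 17.
Fragment 769981, clone 1: ○●●●●●○●●◐
Fragment 769981, clone 2: ◐●●●●●●●●●
Fragment 769981, population: ◐◐●●●●●●●◐
Its CpG 1 was also at 20% or less in clone 1 and was not called.

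Single CpGs called against the population were few at its lower depth. In clone 1, 56 of 38711 member CpGs were called, 0.145%, while 0.543% of all tested CpGs were. In clone 2 these were 57 of 34133, 0.167%, and 0.503%. Lower than the population were 38 in clone 1 (background 0.226%) and 34 in clone 2 (background 0.172%), with median levels of 11.9% and 17.0% in the clones, against 91.3% and 100% in the population. Higher were 18 in 8 fragments in clone 1 (background 0.317%) and 23 in 10 fragments in clone 2 (background 0.331%). With the odd lines measured, 7 were higher and 40 lower in clone 1, and 9 higher and 28 lower in clone 2. In that setting 0.549% and 0.487% of all tested CpGs were called in clones 1 and 2. With a membership threshold of 90%, 2 were higher and 17 lower in clone 1, and 4 higher and 20 lower in clone 2. The shares over all CpGs were then still 0.543% and 0.503%. Members were chosen at a high population level, so the balance of higher and lower calls is partly built in.

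A few CpGs were low in all 3 libraries inside members that were otherwise methylated. Of 33019 CpGs with at least 10 molecules per clone and 5 in the population, 27544 (83.4%) were above 80% in all 3 libraries, 45 in 42 fragments were under 50% in all 3 and 8 were under 20% in all 3. The lowest was CpG 10 of 10 in fragment 965882, methylated on 1 of 19 molecules in clone 1, 1 of 24 in clone 2 and 0 of 7 in the population. CpG 2 of 10 in fragment 555408 was methylated on 3 of 61, 2 of 61 and 1 of 28 molecules, while the fragment as a whole was at 81.1%, 81.5% and 83.2%. CpG 8 of 10 in fragment 1543222 had 2 of 43, 3 of 41 and 0 of 18. CpG 1 of 14 in fragment 1224798 and CpG 3 of 10 in fragment 444465 followed, at 0% and 5.56% in clone 1, 10.0% and 11.4% in clone 2, and 0% and 5.88% in the population. The CpGs named in fragments 965882 and 1224798 are the outermost of their fragments. Calls there can come from an end rebuilt in the fill-in reaction, where levels ran lower. The part of such calls in these values was not tested.
Fragment 1543222, clone 1: ●●●●●●●○●·
Fragment 1543222, clone 2: ●●●●●●●○●◐
Fragment 1543222, population: ●●●●●●◐○●·
Across fragments, levels in the clones correlated with Pearson's r = 0.43 over 5229 members, and across CpGs with r = 0.33 over 33019 CpGs. These points share libraries and fragments, and most lie within a few points of the upper end of the scale.

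Mean pattern diversity was lower in both clones than in the population. Epipolymorphism, the probability that a pair of molecules from 1 library differ in their pattern at 4 neighbouring CpGs, was averaged over 17041 windows in 3933 members with at least 5 complete molecules in every library. It was taken over pairs of different molecules, with medians of 20, 17 and 8 molecules per window in clone 1, clone 2 and the population. It was 0.247 in clone 1 and 0.238 in clone 2, against 0.290 in the population. Methylated fragments with 5 to 9 CpGs had the same order, at 0.293, 0.271 and 0.338. Windows with only 1 pattern went the other way, at 16.1% and 21.4% of member windows in the clones, against 31.5% in the population. The part of the lower number of molecules in that share was not tested. Molecules with mixed calls in the window made up 16.6% and 15.9%, against 17.1%. Windows fully unmethylated on a molecule were rarer, at 0.146% and 0.177%, against 0.339%. With molecules of 2 or more reads alone, over the 2116 windows left, it was 0.268 in clone 1 and 0.237 in clone 2, against 0.275 in the population. No spread between replicates is available for these means.

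Unmethylated calls met on the same molecule more often than their separate rates would give. At adjacent CpGs, both were unmethylated on 6884 molecules in clone 1, where 4060 would be met with independent calls, a ratio of 1.70. The ratio was 1.67 in clone 2 and 2.18 in the population. At 5 CpGs apart it was 1.31 in clone 1 and 1.37 in clone 2, against 1.66 in the population. The expected number was formed from different molecules of the same CpG pair, so differences in level between CpGs do not enter it.

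Place on the fragment and strand changed little. At the read's own fragment end, CpG 1 was at 95.5% in clone 1, 95.5% in clone 2 and 94.8% in the population, and CpGs more than 5 from either end were at 94.1%, 94.3% and 93.6%. The last CpG at the far end was lower, at 60.9%, 71.9% and 73.0%. That end was rebuilt in the fill-in reaction, and these calls were 0.342%, 0.514% and 0.267% of all member calls. Plus and minus strands stood at 94.1% and 94.1% in clone 1, 94.2% and 94.2% in clone 2, and 93.6% and 93.8% in the population.

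Fragments with numbers adjacent to a member were methylated too. Among 1823 such fragments past the coverage minimum, 92.3% were above 80% in clone 1, 92.9% in clone 2 and 92.5% in the population, and 4, 4 and 3 were under 20%. Of all 160499 covered fragments, 61.9%, 62.8% and 61.0% were above 80%. The files do not state that numbers follow the order in the genome. Fragment 739518, next in number to fragment 739517, was at 86.2% in clone 1, 44.7% in clone 2 and 77.1% in the population, on 9, 13 and 5 molecules, fewer than the coverage minimum in clone 1. Fragment 739517 itself had 88.8%, 33.3% and 55.2%, and fragment 739516 on its other side had 88.9%, 100% and 0% on 5, 1 and 1 molecules. At fragment 297933, next to fragment 297934, the levels were 65.3%, 87.0% and 78.1% on 20, 17 and 10 molecules, where its neighbour had 26.0%, 90.1% and 87.7%.

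Values of other fragment classes are given beside the members' without a test of the difference. Whole-fragment calls between the clones were 0.287% of members, against 0.940% of 39486 methylated fragments with 5 to 9 CpGs and 0.437% of 17146 unmethylated fragments with 10 to 19 CpGs. Against the population they were 0.0574% of members in each clone, against 0.0582% in clone 1 and 0.0405% in clone 2 at 5 to 9 CpGs. Called CpGs between the clones were 2.94% of the members' tested CpGs, against 4.16% at 5 to 9 CpGs, 4.50% at 2 to 4 CpGs and 2.78% in the unmethylated dense fragments. The coverage behind these CpGs had medians of 22 and 19 molecules in clones 1 and 2 for the members, and 25 and 20 at 5 to 9 CpGs. The share of fragments still above 80% was 97.4% of members in each clone, against 94.1% in clone 1 and 94.6% in clone 2 at 5 to 9 CpGs and 90.4% and 91.6% at 2 to 4 CpGs. On the even lines of the population, which only remeasure the same library, it was 96.9% of members, 95.4% at 5 to 9 CpGs and 91.2% at 2 to 4 CpGs. A fragment with fewer CpGs has fewer calls behind its level, and the part of this in the shares was not tested.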

How the data were processed

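The deposited pattern files, 1 per library and without headers, hold 1 line per fragment number, strand and tag of 6 bases. The submitters' processing notes name Bismark and mm9, with no version; the filters applied are not given in these sources. Each line gives a string with 1 character per CpG, the authors' read count behind the tag, and a deposited whole number of unstated meaning, used only as a score for a filter. The counts are not normalized. Libraries held 11969176 lines in clone 1, 8977287 in clone 2 and 8463942 in the population, from 16036644, 15027960 and 17003711 reads, and 7013054, 5567534 and 5588357 lines had a call. Each line with a call counted as 1 molecule whatever its reads. Tags are few, so molecules on deep strands can be merged, and an interval treats molecules as independent.

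Levels, Fisher's exact tests, Benjamini-Hochberg adjustment and epipolymorphism were computed with Python 3.11.15, numpy 2.4.6, pandas 2.3.3, scipy 1.17.1 and numba 0.67.0, and tested on simulated data. Fragment tests needed at least 4 CpGs, CpG tests at least 2 CpGs per fragment, both with 10 molecules per clone and, against the population, 5 on its even lines.

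Named fragments were the 5 widest called differences per comparison and direction, the 3 deepest, the 3 on each side of the threshold, those under 50% in both clones (none) and the 5 CpGs lowest over the 3 libraries. The members, and all lists, were chosen with earlier results of these data known. Alternatives were other coverage minimums, population lines, thresholds, molecules, strands and fragment ends.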

Additional observations from a re-analysis of the deposited data

Results flagged for a closer look

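The departure from the population differed between the clones at 15 members, by the direct Fisher's exact test between the clones with adjustment over all tested fragments. The values are clone 1 minus clone 2 in the share of methylated molecules, in percentage points. Lower in clone 1 were fragments 297934 (-72.7), 578990 (-63.9), 290774 (-56.2), 1445691 (-55.0), 1443346 (-54.2), 1160160 (-53.8), 148438 (-45.0) and 154912 (-37.4). Higher in clone 1 were fragments 1194822 (29.8), 1436378 (36.8), 1300718 (43.6), 209581 (46.2), 677202 (49.5), 71948 (73.3) and 739517 (85.0). Fragments 1160160, 148438, 154912, 1436378 and 1194822 fall outside the 5 widest per direction and are named here because they passed.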

How the results depend on the processing

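No paired analysis was possible because the replicates of each clone share 1 file, and for the same reason none could be left out. Each clone stayed above the population's mean level except clone 1 with molecules of 2 or more reads (-0.14 points). With such molecules, 618 members were left and 0 fragments were called in any comparison, with 35 CpGs between the clones (0.913% of member CpGs; 2.56% of all) and 0 against the population, and epipolymorphism was 0.268 in clone 1 and 0.275 in the population. With 20 molecules per clone and 10 on even lines, 1962 members were left, with 572 CpGs (4.68%; 8.33% of all) and 9 fragments (0.459%; 4.01% of all) called between the clones and 1 fragment in clone 2 (0.0510%; 0.820% of all). With members chosen on even lines, 1 fragment was called in each clone against the population (0 higher and 1 lower in each; 0.346% and 0.345% of all tested) and 37 CpGs in clone 2 (9 higher, 28 lower; 0.487% of all). With a threshold of 90%, 5 fragments (0.116%) and 672 CpGs (2.24%) were called between the clones, with the shares over all fragments and CpGs still 2.46% and 5.39%, 0 fragments in either clone, and 19 and 24 CpGs in clones 1 and 2, while the level differences were 0.14 and 0.37 points and epipolymorphism 0.225, 0.217 and 0.261 (clone 1, clone 2, population). With molecules counted as methylated above 80%, 130 fragments were called between the clones (2.49%; 5.60% of all), 10 in clone 1 (0.191%; 0.547% of all) and 8 in clone 2 (0.153%; 0.505% of all), and fragment 578990 reversed to 4.80 points. Without first and last CpGs, 24 fragments were called between the clones (0.468%; 4.24% of all). The minus strand alone gave differences of 0.22 and 0.38 points and 0.260 for clone 1's epipolymorphism, and the plus strand 0.71 points for clone 2. Settings added after seeing the data gave 0.39 and 0.65 points without calls at rebuilt ends, and epipolymorphism of 0.237, 0.229 and 0.283 without strands of more than 25 molecules. For the named differences, 162 recomputed values kept direction and call, 18 lost the call and 1 reversed. Part of the 162 could not have changed. Tests were run over all fragments, so the membership threshold of 90% had no effect on them. Dropping the minimum difference cannot remove a call, and the exchange of population lines does not enter differences between the clones. The lost calls include the higher ones against the population at fragments 543091, 460327 and 1354986 with the odd lines measured. These fragments were not members at the threshold of 90%, although their values there count as kept. Against the population, the median depth of 11 molecules per member limits what can pass.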
